A study of Danio rerio with 15 samples.

Results

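The hearts of zebrafish that had spent 5 days free of phenylhydrazine were compared with hearts taken at the end of 5 weeks of treatment with it. Phenylhydrazine (PHZ) breaks up red blood cells and so causes anaemia, and the series used it to bring about heart failure that is followed by recovery. The comparison held 6 of the series' 15 arrays, chosen by their titles alone: 3 at 5 days after treatment and 3 at the end of treatment. The group at 5 days and the group at the end of treatment had both received 30 min baths every 3 days for 5 weeks, each bath followed by a 30 min wash, with PHZ in the water (first week 1.25 µg/mL, later 2.5 µg/mL). The other 9 arrays, 3 each at 2 days, at 9 days and in control fish that went through baths without PHZ, entered the fit and are given where a level needs a scale. Strain, sex and age of the fish are not given in the labels. Each array held RNA pooled from 3 ventricles, so the spread between arrays is that between pools of hearts. Controls have no sampling day and there are no untreated fish for each day of recovery, so recovery and the passing of time cannot be told apart. All values are of whole ventricles, in which fewer cells of a type and less RNA per cell cannot be told apart.

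The zebrafish heart keeps the ability to make new heart muscle cells in adult life. When oxygen runs short, hypoxia-inducible factors switch on genes for glucose uptake, sugar breakdown and vessel growth. Anaemia also loads the heart, because blood with little haemoglobin has to be pumped faster, and strained heart muscle makes natriuretic peptides. New red cells are made outside the heart, in the kidney marrow of fish, and reach the ventricle with the blood, where nucleated fish red cells bring their own RNA.

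Signals are on the log2 scale. Differences are given as 5 days minus end of treatment ± the standard error from limma, with 3 arrays in each group. Rose and fell are used for genes with a p value under 0.05 after adjustment over all 19260 genes. The cardiac myosin light chain gene myl7 had 13.38, 13.33 and 13.33 at 5 days, against 13.28, 13.26 and 13.26 at the end of treatment, and cardiac troponin T, tnnt2a, had 12.69, 12.67 and 12.64 at 5 days, against 12.55, 12.52 and 12.55 at the end of treatment. Neither difference passed the test (adjusted p = 0.322 and 0.093), and that of tnnt2a did once the dimmest genes were left out (0.13, adjusted p = 0.0416). The atrial myosin heavy chain gene myh6 (11.15, 9.31 and 10.51 at 5 days, against 10.43, 10.59 and 10.68 at the end of treatment) varied most within the 5-day group, and its difference did not pass the test (-0.25 ± 0.28, adjusted p = 0.663). Median signals of all 15 arrays lay between 4.022 and 4.095. Detection values were not used, so how far a signal near or below these medians stands over background is unknown. Of the genes named below, slc2a3a had a mean of 4.20 and ntmt2 of 3.29 at 5 days. The size of a fall to such levels is uncertain. Precision is limited by there being 3 arrays per group. Pearson's r across transcript clusters, a description since clusters are not independent, among the 6 arrays was 0.9789 to 0.9836 within groups and 0.9753 to 0.9795 between them.

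Between the 2 groups 2377 of 19260 genes changed (12.3%), 835 higher at 5 days (4.34%) and 1542 lower (8.01%). Large changes leaned further to the lower side, with 84 genes at least 2-fold higher and 223 at least 2-fold lower. At an unadjusted p under 0.05 there were 4672 genes. The 3 arrays of one group lay wholly above or below those of the other for 5401 genes (28%), 2284 higher and 3117 lower. Leaving out each of the 6 arrays in turn left 1615 to 2008 calls, and 1233 genes kept the call in all 6 of those fits. Centring each array on its median gave 609 higher and 1913 lower genes in place of 835 and 1542, so the share of rises among calls was 24.1% in place of 35.1%. In the same fit 1227 genes (6.37%) differed between 5 days and control, 752 higher at 5 days and 475 lower. Between 2 days and the end of treatment 1536 (7.98%) differed, and between 5 days and 2 days 36 (0.187%). These contrasts share arrays with the one described, so each is given only beside it. A blood score per array, the median over erythroid list genes of the difference from the control mean, was 0.364, 0.395 and 0.399 at 5 days, against 0.106, 0.142 and 0.238 at the end of treatment. The control arrays scored -0.112, 0.191 and -0.0425. The score is named for its list and is not a measure of blood content. The red cell genes hbaa2, hbba2 and slc4a1a did not differ between the 2 groups by the test, and stood above control at 5 days. The score did not overlap between the 2 groups compared. With it as a covariate 1343 genes changed, 371 higher and 972 lower. Of the 214 called genes chosen for naming 69 lost the call. The median standard error in that fit was 0.2 in place of 0.143. A call lost with the score did not always go with a smaller difference.

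**Figure D1:**
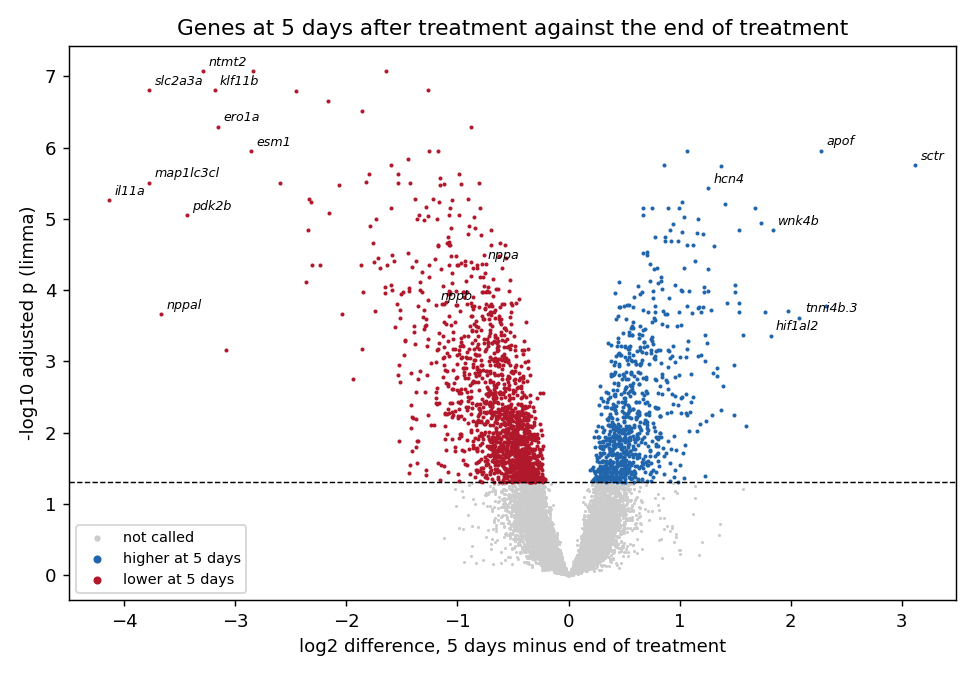
Each point is 1 of 19260 genes, with its log2 difference (5 days minus end of treatment) across and the -log10 of its adjusted p upward, and the dashed line marks 0.05. The 835 blue points are higher at 5 days and the 1542 red points lower, and the left arm reaches further out, with il11a at -4.13.

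Of the genes chosen for naming il11a fell most steeply. It encodes interleukin 11, a cytokine of the interleukin 6 family. Transcript cluster 13030428 for il11a had 4.62, 4.76 and 4.75 at 5 days, against 8.46, 9.06 and 9.02 at the end of treatment. All 3 arrays at 5 days lay near the control mean of 4.20, and the groups were far apart. The difference was -4.13 ± 0.39, a 17.5-fold lower signal (adjusted p = 5.48e-06). In zebrafish, interleukin 11 acts through the receptor genes il11ra and il6st, the kinases of the jak family and the transcription factor Stat3, with socs3 genes as targets that feed back. Where 8.01% of all genes fell and 4.34% rose, 6 of the 10 measured genes of this chain fell and 1 rose. The count includes il11a, the steepest of the named falls, so it is a description and not a test of the chain. The feedback inhibitor gene socs3b had 7.84, 7.98 and 7.90 at 5 days, against 9.34, 9.61 and 10.06 at the end of treatment. Its groups did not overlap, and it fell by 1.76 ± 0.20 (adjusted p = 2.21e-05). The transcription factor gene stat3 had 8.51, 8.83 and 8.78 at 5 days, against 9.30, 9.38 and 9.47 at the end of treatment and differed by -0.68 ± 0.09 (adjusted p = 6.98e-05). For il6st, the shared signalling receptor, the values were 9.48, 9.35 and 9.43 at 5 days, against 9.90, 9.98 and 10.16 at the end of treatment, a difference of -0.60 ± 0.08 (adjusted p = 0.000158). Both genes were lower on every 5-day array. The kinase gene jak2a moved the other way, with 7.78, 7.81 and 7.73 at 5 days, against 6.53, 6.57 and 7.0 at the end of treatment and a difference of 1.07 ± 0.12 (adjusted p = 2.37e-05). The falls in il11b (-0.75 ± 0.21) and jak1 (-0.24 ± 0.07) were not called in at least 1 fit that left out an array, with a highest adjusted p of 0.0989 and 0.133. The genes il11ra (0.20 ± 0.09), jak2b (-0.14 ± 0.11) and socs3a (-0.51 ± 0.34) did not pass the test.

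Genes switched on by low oxygen were mostly lower at 5 days. Each list is counted over its members measured on the array. The lists were chosen with earlier results of these data known. Their shares beside those of all genes are therefore a description and not a test. Of 50 measured members of the hypoxia list 24 fell (48.0%) and 3 rose (6.0%), with a median difference of -0.416 against 0.000634 over all genes. The glucose transporter gene slc2a3a had 3.91, 4.57 and 4.12 at 5 days, against 8.12, 8.12 and 7.68 at the end of treatment. Its 5-day arrays were 13.7-fold lower on average (-3.77 ± 0.24, adjusted p = 1.56e-07), and the difference from control did not pass the test (0.84 ± 0.24, adjusted p = 0.0527). Its duplicate slc2a3b had 6.07, 6.81 and 6.79 at 5 days, against 8.69, 8.69 and 8.76 at the end of treatment, a difference of -2.16 ± 0.22 (adjusted p = 8.43e-06). That gene was still 1.42 ± 0.22 above control at 5 days (adjusted p = 0.000735). The endoplasmic reticulum oxidase gene ero1a, which helps proteins form disulfide bonds, had 7.5, 7.59 and 7.97 at 5 days, against 10.74, 10.89 and 10.90 at the end of treatment and differed by -3.16 ± 0.23 (adjusted p = 5.09e-07). The oxygen sensor gene egln3, a prolyl hydroxylase that marks hypoxia-inducible factors for breakdown, had 7.64, 8.22 and 8.17 at 5 days, against 9.29, 9.20 and 9.08 at the end of treatment. It fell by 1.18 ± 0.20 (adjusted p = 0.000684). Both genes still differed from control, with 5 days minus control at 1.14 ± 0.23 for ero1a (adjusted p = 0.00721) and 1.5 ± 0.20 for egln3 (adjusted p = 0.0002). Further members were ndrg1a, a gene of the stress response (-1.53 ± 0.14, adjusted p = 3.12e-06), adma, which encodes the vasodilator adrenomedullin (-1.75 ± 0.21, adjusted p = 4.11e-05), and the vascular growth factor gene vegfab (-1.12 ± 0.10, adjusted p = 3.27e-06).

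The 3 hypoxia members that rose are alpha subunit genes of the factor or named as related to them. The gene hif1al2, named as a relative of the alpha subunit genes, had 8.79, 8.66 and 9.40 at 5 days, against 6.78, 6.78 and 7.84 at the end of treatment and rose by 1.82 ± 0.28 (adjusted p = 0.00044). The alpha subunit genes epas1b (0.29 ± 0.07, adjusted p = 0.0158) and hif1ab (0.24 ± 0.06, adjusted p = 0.0162) rose little. Without end of treatment replicate 3, with the blood score or with no variance trend only 1 rise was called. The hypoxia list's summed signal, on the linear scale, was 22778 to 24948 at 5 days, 33332 to 34106 at the end of treatment and 20940 to 22992 in control. Against control, 9 members were still higher at 5 days and 1 was lower, with a median difference of 0.0454. Of all 19260 genes 752 were higher than control and 475 lower.

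Sugar breakdown showed the highest share of falls among the 33 lists. Of 39 genes of glycolysis and lactate handling 23 fell (59.0%) and 1 rose (2.56%), with a median of -0.393, and all 23 falls kept the call in every fit that left out an array. The enolase gene eno1b had 4.33, 4.45 and 4.61 at 5 days, against 6.74, 7.0 and 7.43 at the end of treatment, with groups far apart, and fell by 2.59 ± 0.23 (adjusted p = 3.12e-06). The phosphofructokinase gene pfklb, for the step that commits sugar to breakdown, had 7.02, 6.61 and 6.99 at 5 days, against 8.55, 8.62 and 8.24 at the end of treatment and differed by -1.60 ± 0.13 (adjusted p = 1.76e-06). The dehydrogenase gene gapdhs had 10.96, 10.96 and 10.94 at 5 days, against 12.22, 12.29 and 12.12 at the end of treatment, a difference of -1.26 ± 0.10 (adjusted p = 1.11e-06). Those arrays agreed closely within each group, and gapdhs remained 0.48 ± 0.10 above control at 5 days (adjusted p = 0.00782). Phosphoglycerate kinase, pgk1, differed by -0.97 ± 0.09 from the end of treatment (adjusted p = 3.27e-06) and by 0.01 ± 0.09 from control (adjusted p = 0.968). The kinase gene pdk2b, whose protein switches off pyruvate dehydrogenase, had 8.16, 7.08 and 8.38 at 5 days, against 11.08, 11.40 and 11.45 at the end of treatment. The 5-day arrays spread over more than 1 log2 unit but all lay below the other group, and the mean was 10.8-fold lower (adjusted p = 8.94e-06). At 9 days the mean of pdk2b was 10.10, beside 7.88 at 5 days and 8.31 in control. The pyruvate kinase gene pkmb was the member that rose (0.64 ± 0.15, adjusted p = 0.00876), a call lost without 5 days replicate 2 and with the blood score, while without end of treatment replicate 3 there were 3 rises. Summed signal of the list was 65108 to 68408 at 5 days, 85133 to 87958 at the end of treatment and 65486 to 68922 in control.

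**Figure D2:**
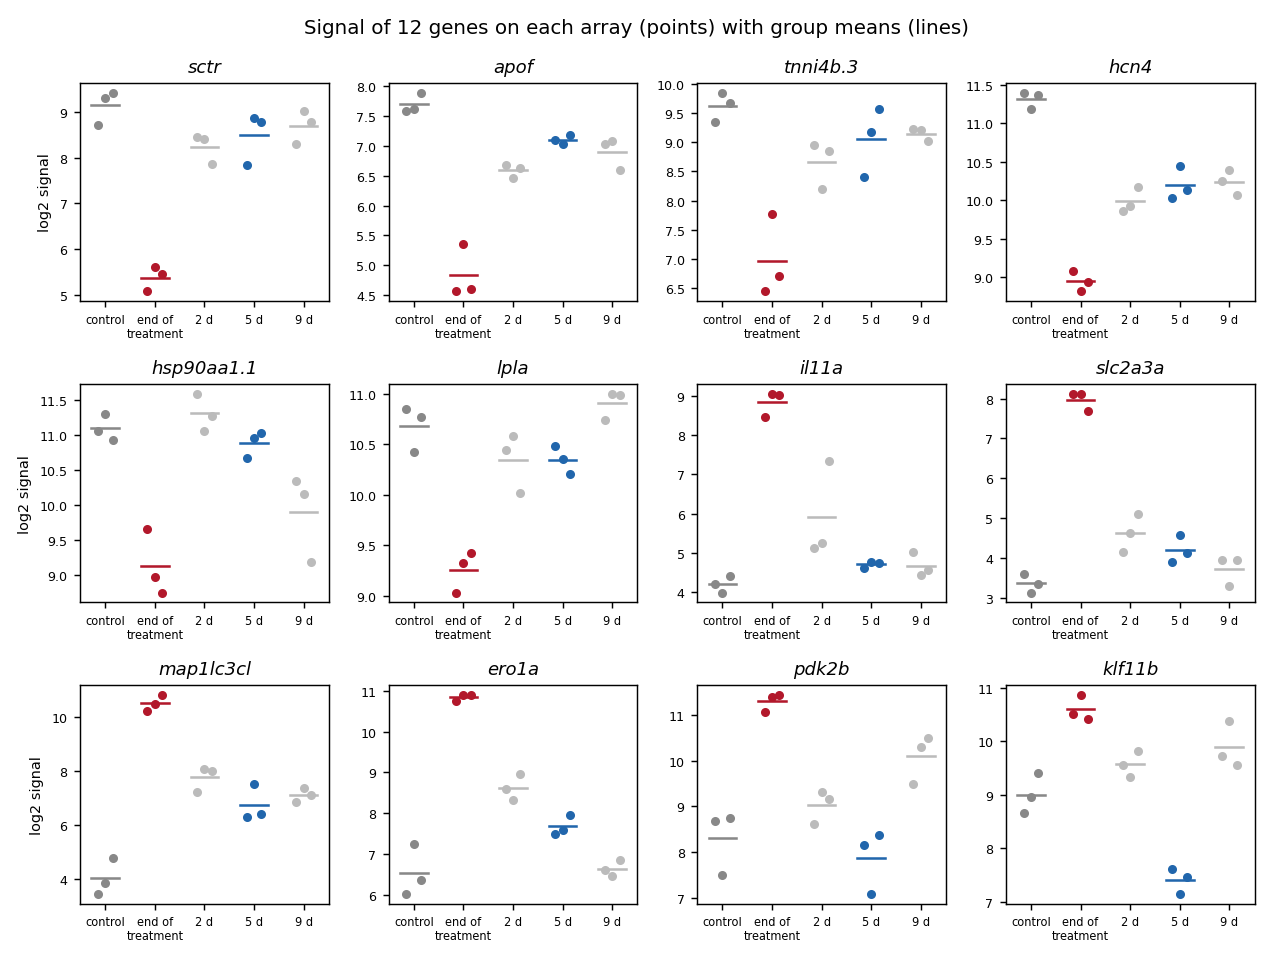
Points are the log2 signals of the 15 arrays for 12 genes, in the order control, end of treatment, 2, 5 and 9 days, and lines are group means of 3 arrays. For each gene the 5-day points (blue) and the end of treatment points (red) do not overlap, with sctr at 8.50 against 5.38 on average and il11a at 4.71 against 8.85 on average.

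Among 45 members of the fatty acid oxidation list 4 rose (8.89%) and 5 fell, against 4.34% and 8.01% of all genes, with a median of -0.0104. The lipoprotein lipase gene lpla, for the enzyme that frees fatty acids from blood lipids, had 10.48, 10.35 and 10.21 at 5 days, against 9.03, 9.33 and 9.42 at the end of treatment and rose by 1.09 ± 0.14 (adjusted p = 0.000104). Its inhibitor angptl4 had 6.32, 6.48 and 7.68 at 5 days, against 8.54, 8.95 and 8.82 at the end of treatment and fell by 1.94 ± 0.36 (adjusted p = 0.00175). The groups did not overlap for either gene. The transcription factor gene pparab, which drives fat use, rose (0.67 ± 0.14, adjusted p = 0.00333), as did the fatty acid transporter gene slc27a1a (0.46 ± 0.08, adjusted p = 0.000759) and the activating enzyme gene acsl4a (1.08 ± 0.17, adjusted p = 0.000513). The transporter gene slc27a6 (-1.0 ± 0.19, adjusted p = 0.00167) and the mitochondrial carrier gene ucp3 (-1.66 ± 0.22, adjusted p = 0.00011) fell. At 9 days the means were 8.88 for angptl4, 7.03 for ucp3 and 5.43 for slc27a6. Those at 5 days were 6.83, 5.89 and 5.14. Falls in the list numbered 3 with the blood score, without end of treatment replicate 2 or without 5 days replicate 2, and 8 without 5 days replicate 3.

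In the tricarboxylic acid cycle list 2 of 40 rose (5.0%) and 7 fell (17.5%), against 4.34% and 8.01% of all genes. The median was 0.0479, and rises numbered 4 without 5 days replicate 3. Among the 7 that fell were 3 assembly factors of succinate dehydrogenase, sdhaf1 (-0.68 ± 0.13), sdhaf4 (-0.52 ± 0.11) and sdhaf2 (-0.33 ± 0.07). The risers were the dehydrogenase genes mdh1aa (0.31 ± 0.06) and idh3a (0.30 ± 0.07). With the blood score the cycle's list had 0 falls, and sdhaf1, sdhaf2 and sdhaf4 lost the call (adjusted p = 0.0879, 0.0655 and 0.168). Of 82 respiratory chain genes 0 rose and 4 fell (4.88%, under the 8.01% of all genes), with a median of -0.000476, and falls numbered 2 with the blood score, with no variance trend, without end of treatment replicate 2 or without 5 days replicate 2. The subunit gene cox6b1 had 10.77, 10.79 and 10.79 at 5 days, against 11.15, 11.16 and 11.16 at the end of treatment, a difference of -0.37 ± 0.06 (adjusted p = 0.001). Of 67 mitochondrial ribosome genes 1 rose (1.49%) and 3 fell (4.48%), both under the shares of all genes, with a median of 0.0391. The single rise, mrps6, was lost in each fit that left out an array except the one without end of treatment replicate 2, and only mrps10 (-0.38 ± 0.08) fell in all 6. That list had 0 rises and 0 falls with the blood score.

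The natriuretic peptide genes nppa and nppb were lower than at the end of treatment and still above control. The natriuretic peptide gene nppb had 10.80, 10.81 and 10.85 at 5 days, against 11.72, 12.18 and 12.14 at the end of treatment. It differed from the end of treatment by -1.2 ± 0.17 (adjusted p = 0.000162) and from control by 1.02 ± 0.17 (adjusted p = 0.00132). For nppa the signals were 11.65, 11.62 and 11.57 at 5 days, against 12.56, 12.32 and 12.29 at the end of treatment, -0.78 ± 0.09 from the end of treatment (adjusted p = 4.36e-05) and 0.63 ± 0.09 from control (adjusted p = 0.000595). No array of one group overlapped the other for either peptide. The related gene nppal had 4.78, 4.73 and 4.80 at 5 days, against 6.41, 9.30 and 9.60 at the end of treatment, and its end of treatment replicate 1 lay well below the other 2. It fell by 3.67 ± 0.53 (adjusted p = 0.000219) and did not differ from control by the test (0.42 ± 0.53, adjusted p = 0.734). The receptor gene npr3, which clears these peptides, had 7.51, 7.77 and 7.90 at 5 days, against 6.76, 6.48 and 5.91 at the end of treatment and rose by 1.34 ± 0.24 (adjusted p = 0.00122). Of the 34 members of the list of cardiac stress and natriuretic peptide genes 5 rose (14.7%) and 8 fell (23.5%), with a median of -0.0169. There were 3 rises and 5 falls with the blood score. Another faller was rcan1a, a target and inhibitor of calcineurin (-0.82 ± 0.19, adjusted p = 0.00911). The secretin receptor gene sctr, in the same list, had the largest rise of the genes chosen for naming. Transcript cluster 13263837 for sctr had 7.84, 8.88 and 8.77 at 5 days, against 5.08, 5.60 and 5.45 at the end of treatment, a 8.7-fold higher mean at 5 days (3.12 ± 0.26, adjusted p = 1.76e-06) that differed from control by -0.65 ± 0.26 (adjusted p = 0.163).

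The other large rises were of mixed function. The apolipoprotein gene apof had 7.10, 7.03 and 7.19 at 5 days, against 4.56, 5.35 and 4.60 at the end of treatment, a difference of 2.27 ± 0.18 (adjusted p = 1.11e-06). The troponin I gene tnni4b.3, for the subunit that holds contraction back, had 8.40, 9.18 and 9.57 at 5 days, against 6.44, 7.76 and 6.71 at the end of treatment and rose by 2.08 ± 0.30 (adjusted p = 0.000244). Its end of treatment replicate 2 stood well above the other arrays of that group but below every 5-day array. The kinase gene wnk4b, a regulator of ion transport, had 8.12, 8.38 and 8.45 at 5 days, against 6.48, 6.61 and 6.34 at the end of treatment and differed by 1.84 ± 0.20 (adjusted p = 1.43e-05). The chaperone gene hsp90aa1.1, which muscle needs to fold myosin, had 10.68, 10.97 and 11.04 at 5 days, against 9.66, 8.97 and 8.75 at the end of treatment, 1.77 ± 0.25 higher (adjusted p = 0.000207). None of these 4 differed from control by the test at 5 days, with adjusted p from 0.0583 for wnk4b to 0.718 for hsp90aa1.1. Besides sctr, hif1al2 and these 4, the 15 largest rises chosen for naming held 9 genes. They were tmem163b (1.68 ± 0.16), nt5c2l1 (1.57 ± 0.25), hprt1l (1.54 ± 0.21), traf3ip3 (1.53 ± 0.22), sult2st1 (1.53 ± 0.16), diras2 (1.5 ± 0.19), cnih3 (1.5 ± 0.20), cavin4b (1.49 ± 0.32) and rasl11b (1.49 ± 0.26). Among them hprt1l is named for the purine salvage enzyme and nt5c2l1 for a nucleotidase.

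The muscle and excitation lists held mostly rises among their calls. Of 53 sarcomere genes 15 rose (28.3%, against 4.34% of all genes) and 1 fell, with a median of 0.170. The actin gene acta1b had 12.89, 12.66 and 12.75 at 5 days, against 12.42, 12.15 and 12.11 at the end of treatment, a difference of 0.54 ± 0.09 (adjusted p = 0.000669). The obscurin-like gene obsl1a (0.57 ± 0.09), the thin filament cap gene tmod1 (0.49 ± 0.08) and the Z-disc gene ldb3a (0.41 ± 0.07) each rose less than 1.5-fold. The stretch-responsive gene ankrd1a was the one that fell (-1.15 ± 0.36, adjusted p = 0.0465). That call was lost without end of treatment replicate 1 or 2 and without 5 days replicate 1 or 2. With all arrays it was lost with no variance trend, with robust variance and with array weights (adjusted p = 0.0673, 0.096 and 0.0516). The ventricular myosin heavy chain gene myh7, formerly called vmhc, had 10.50, 10.83 and 10.01 at 5 days, against 9.88, 8.93 and 10.37 at the end of treatment. Those groups overlapped, and the difference of 0.72 ± 0.32 did not pass the test (adjusted p = 0.169). It did pass when end of treatment replicate 3 was left out (1.04, adjusted p = 0.0485), and likewise with the mean of its 2 clusters (0.91, adjusted p = 0.00342). The list's score, the median over members of an array's difference from the mean of the end of treatment, was 0.137 to 0.210 at 5 days, -0.0388 to 0.0395 at the end of treatment and 0.262 to 0.282 in control. Against control, 8 sarcomere genes were lower at 5 days and 2 higher, beside 475 lower and 752 higher of all 19260 genes. The blood score fit had 9 sarcomere genes higher and 0 lower.

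Of 59 calcium and ion channel genes 17 rose (28.8%) and 5 fell (8.47%), with a median of 0.169. The pacemaker channel gene hcn4 had 10.04, 10.44 and 10.14 at 5 days, against 9.09, 8.82 and 8.94 at the end of treatment, a 2.39-fold higher mean (1.26 ± 0.12, adjusted p = 3.7e-06). Its 5-day arrays lay above those of the end of treatment and below those of control, and were still -1.11 ± 0.12 from control (adjusted p = 2.44e-05). The sodium-calcium exchanger gene slc8a1a, which removes calcium from the cell after each beat, had 11.30, 11.39 and 11.31 at 5 days, against 10.63, 10.65 and 10.72 at the end of treatment, 0.67 ± 0.07 higher (adjusted p = 6.98e-06). The beta-adrenergic receptor gene adrb1 had 8.37, 8.38 and 8.58 at 5 days, against 7.41, 7.52 and 7.42 at the end of treatment and rose by 0.99 ± 0.10 (adjusted p = 6.98e-06). Groups were apart for both. The calcium-dependent kinase gene camk2d2 (1.02 ± 0.11, adjusted p = 1.53e-05) and jph2, which ties the cell membrane to the calcium store (0.71 ± 0.08, adjusted p = 2.96e-05), also rose. The falls included the gap junction gene gja1b, connexin 43, with 7.14, 6.68 and 7.20 at 5 days, against 8.38, 7.81 and 9.05 at the end of treatment and a difference of -1.41 ± 0.31 (adjusted p = 0.00615). The inward rectifier gene kcnj2a differed by -1.28 ± 0.19 (adjusted p = 0.000259), and kcne4, a potassium channel subunit gene, by -1.21 ± 0.28 (adjusted p = 0.00774). That subunit gene remained 1.66 ± 0.28 above control (adjusted p = 0.00154). With the blood score the list had 10 rises and 3 falls, and falls also numbered 3 without end of treatment replicate 1 or 2.

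Cardiac transcription factor genes followed the same direction, with 10 of 49 higher (20.4%) and 2 lower, and a median of 0.141. The factor gene nkx2.5, which directs heart muscle formation, had 10.85, 10.81 and 10.82 at 5 days, against 10.34, 10.39 and 10.41 at the end of treatment, a difference of 0.45 ± 0.06 (adjusted p = 0.000233). Of the T-box factor genes tbx5a rose by 0.44 ± 0.07 and tbx20 by 0.54 ± 0.09. The genes tead3a (0.65 ± 0.09) and klf15 (0.74 ± 0.12), regulators of muscle genes and of metabolism, rose as well. The factor gene mef2cb fell (-0.51 ± 0.08, adjusted p = 0.000299), and the fall of nr4a3 (-0.79 ± 0.25) was lost in every fit without 1 array. Among 14 cardiomyocyte identity genes 3 rose (21.4%) and 2, nppa and nppb, fell (14.3%), and the median was 0.141. The summed signal of these 14 genes was 77513 to 80031 at 5 days and 76288 to 77470 at the end of treatment, ranges that nearly met.

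**Figure D3:**
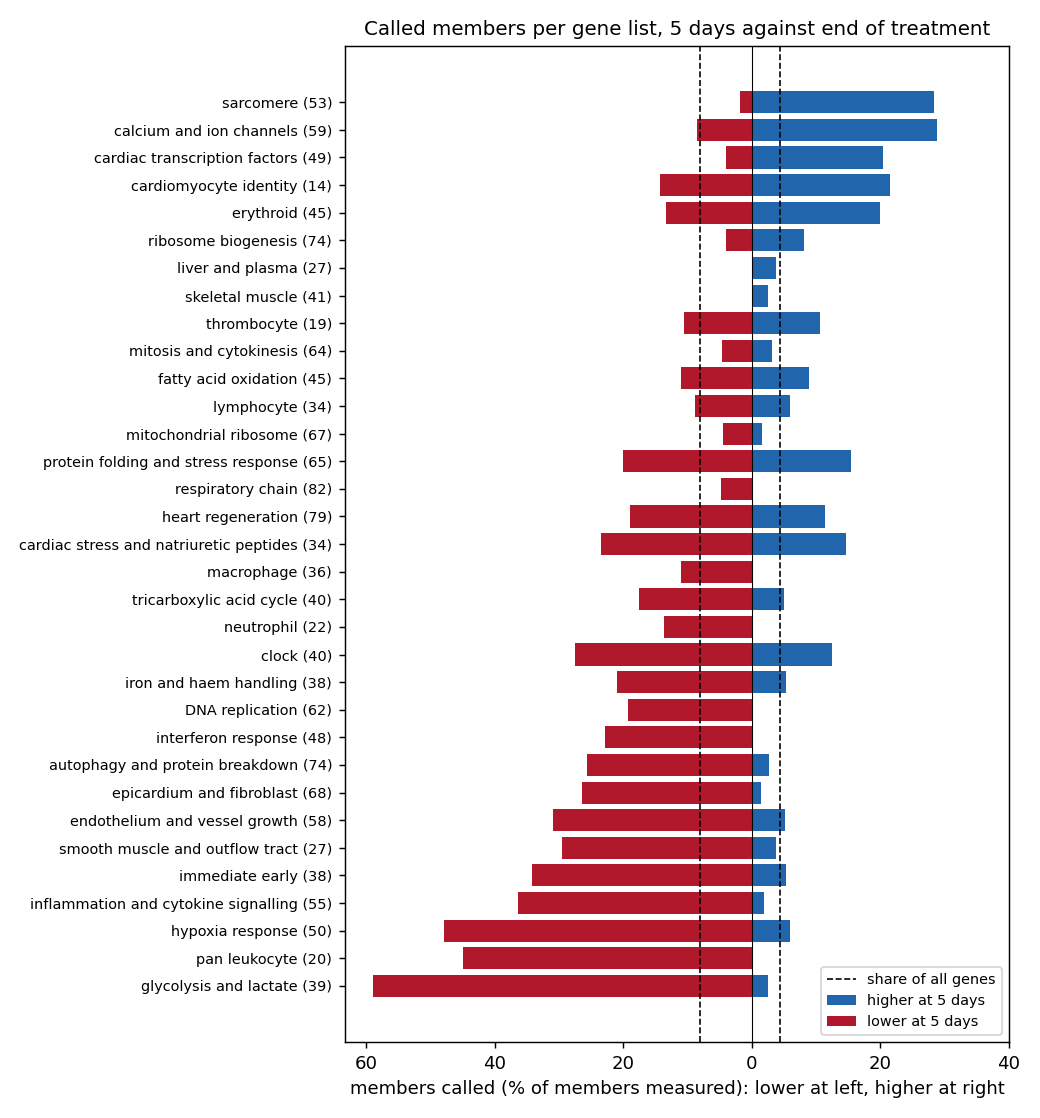
Bars give, for each of 33 gene lists (number of measured members in brackets), the percent of members called lower at 5 days to the left and higher to the right, and the dashed lines are the 8.01% and 4.34% of all genes. Glycolysis, pan leukocyte and hypoxia genes have the longest left bars, and calcium and sarcomere genes the longest right bars.

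Vessel and matrix genes fell in number. Of 58 genes of endothelium and vessel growth 18 fell (31.0%) and 3 rose (5.17%), with a median of -0.194. The gene esm1, a marker of sprouting vessel tips, had 6.62, 6.44 and 6.22 at 5 days, against 9.02, 9.48 and 9.34 at the end of treatment, a 7.23-fold lower mean (-2.85 ± 0.23, adjusted p = 1.12e-06). Its difference from control at 5 days was 0.07 ± 0.23 (adjusted p = 0.909). The apelin gene apln, for a peptide that widens vessels, had 8.94, 9.27 and 8.97 at 5 days, against 10.26, 10.46 and 10.14 at the end of treatment and differed by -1.22 ± 0.12 (adjusted p = 5.21e-06). The vascular growth factor receptor gene kdr (-0.54 ± 0.07, adjusted p = 0.000103) and the junction gene esama (-0.47 ± 0.06, adjusted p = 0.000155) fell by less. Groups did not overlap for any of the 4. The fenestral diaphragm gene plvapa rose (1.19 ± 0.27, adjusted p = 0.00761). Rises in the list numbered 1 with the blood score and without end of treatment replicate 2 or 5 days replicate 2. Summed signal of the list was 23892 to 24598 at 5 days, 29391 to 29879 at the end of treatment and 21640 to 23172 in control, and its lowest member at 5 days, cxcr4a, had a mean of 3.24. How far a change in the number of vessel cells has part in the result was not tested. Outside this list the vessel growth factor gene ANGPT2 was among the 15 largest falls chosen for naming. It had 4.51, 3.91 and 4.28 at 5 days, against 6.75, 6.86 and 6.44 at the end of treatment (-2.45 ± 0.16, adjusted p = 1.62e-07).

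The epicardium and fibroblast list had 18 of 68 lower (26.5%) and 1 higher, with a median of -0.169. Genes of collagen-modifying enzymes led it: plod2 had 9.07, 9.12 and 9.18 at 5 days, against 10.50, 10.57 and 10.59 at the end of treatment, a difference of -1.43 ± 0.13 (adjusted p = 3.16e-06). Its relative plod1a had 9.56, 9.63 and 9.83 at 5 days, against 11.34, 11.18 and 11.102 at the end of treatment and differed by -1.54 ± 0.13 (adjusted p = 2.36e-06). The plod2 signal was still 1.18 ± 0.13 above control (adjusted p = 3.76e-05). The hyaluronan link protein gene hapln1a, which epicardial cells make in zebrafish heart regeneration, had 7.93, 8.13 and 7.82 at 5 days, against 9.20, 9.42 and 9.69 at the end of treatment, -1.48 ± 0.24 lower (adjusted p = 0.000513). The protease inhibitor gene timp2b (-1.13 ± 0.15) and the matrix gene lum (-1.04 ± 0.16) fell, and the procollagen protease gene bmp1a rose (0.82 ± 0.18, adjusted p = 0.00583). Rises numbered 0 with the blood score, 2 without end of treatment replicate 2 and 4 in a fit of only the 6 arrays. The list summed to 27970 to 30223 at 5 days, against 36578 to 37848 at the end of treatment and 24706 to 29515 in control. Of 27 smooth muscle and outflow tract genes 8 fell (29.6%) and 1 rose, with a median of -0.356. The smooth muscle actin gene acta2 had 8.35, 8.54 and 8.93 at 5 days, against 9.79, 10.04 and 9.81 at the end of treatment, with no overlap, and differed by -1.28 ± 0.23 (adjusted p = 0.00158). The smooth muscle myosin gene myh11a, with 7.51, 7.73 and 7.73 at 5 days, against 8.62, 8.52 and 8.48 at the end of treatment, fell by 0.89 ± 0.15 (adjusted p = 0.000893) and lay -0.73 ± 0.15 from control (adjusted p = 0.00774). The pericyte gene rgs5b (-1.12 ± 0.20), the matrix gene fbln2 (-0.63 ± 0.11) and the calcification inhibitor gene mgp (-0.82 ± 0.15) fell too. The single rise, smtnb (0.38 ± 0.10), was lost without end of treatment replicate 3, without 5 days replicate 2 or 3, with the blood score and in a fit of only the 6 arrays. Smooth muscle falls numbered 5 with the blood score. Summed signal was 8837 to 10247 at 5 days, 12505 to 14146 at the end of treatment and 10182 to 11659 in control. The outflow tract joins the ventricle, and the share of it in each pool was not measured and its part in the result was not tested.

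**Figure D4:**
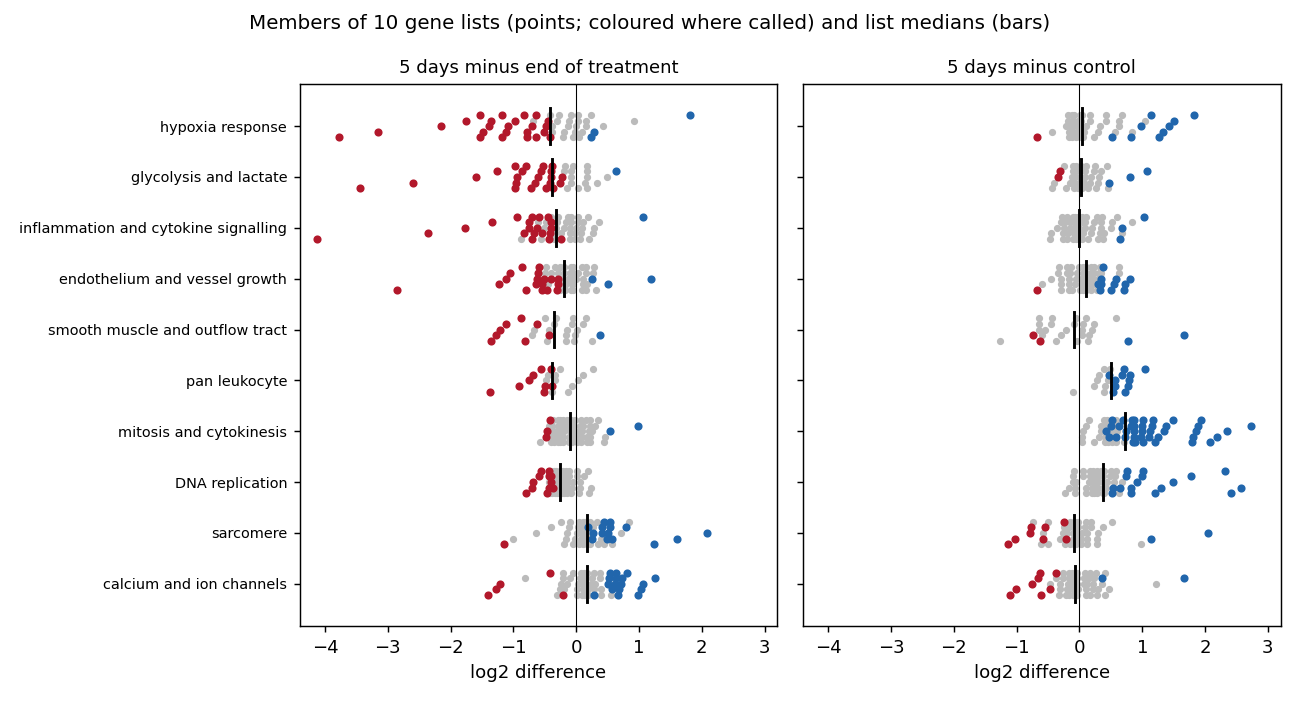
Each point is a member of 1 of 10 gene lists, placed by its log2 difference from the end of treatment (left) and from control (right), coloured where called (blue higher, red lower), with the list median as a bar. At left the hypoxia median is -0.416 and the mitosis median -0.106, while at right they are 0.0454 and 0.730.

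Red cell genes split. Of 45 erythroid genes 9 rose (20%) and 6 fell (13.3%), with a median of 0.149. The erythroid factor gene klf1 had 9.10, 9.35 and 9.56 at 5 days, against 8.24, 8.33 and 8.73 at the end of treatment, a difference of 0.90 ± 0.17 (adjusted p = 0.00243). The Rhesus family gene rhd had 7.15, 7.26 and 7.77 at 5 days, against 5.95, 6.26 and 6.38 at the end of treatment, 1.2 ± 0.20 higher (adjusted p = 0.000814). Both were higher on every 5-day array. The erythroid factor gene nfe2 (0.71 ± 0.14, adjusted p = 0.0037) rose as well. The adult alpha globin gene hbaa2 had 10.56, 10.06 and 10.98 at 5 days, against 10.51, 10.35 and 10.91 at the end of treatment, and the beta globin gene hbba2 had 10.37, 10.20 and 9.98 at 5 days, against 10.25, 10.15 and 10.48 at the end of treatment. Those groups overlapped, and the differences of -0.06 ± 0.28 and -0.11 ± 0.20 did not pass the test (adjusted p = 0.935 and 0.799). Both globins stood above control at 5 days, by 2.3 ± 0.28 for hbaa2 and 1.85 ± 0.20 for hbba2 (adjusted p = 0.00012 and 3.77e-05). The red cell membrane gene slc4a1a likewise did not pass (-0.27 ± 0.20, adjusted p = 0.448) and was 1.90 ± 0.20 above control (adjusted p = 2.44e-05). With the blood score its difference from the end of treatment was -0.95 and passed the test (adjusted p = 0.00098).

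The pathway of haem synthesis, followed by 1 chosen gene at each of 8 steps, had 1 rise and 5 falls. Of all genes 4.34% rose and 8.01% fell. The first enzyme gene, alas2, had 11.58, 11.64 and 11.75 at 5 days, against 10.58, 10.75 and 11.27 at the end of treatment, a difference of 0.79 ± 0.17 (adjusted p = 0.00448). Later enzymes moved the other way: urod had 7.36, 7.34 and 7.39 at 5 days, against 8.19, 8.22 and 8.18 at the end of treatment, a difference of -0.83 ± 0.13 (adjusted p = 0.00038). The next enzyme gene, cpox, had 6.47, 6.66 and 6.85 at 5 days, against 7.54, 7.56 and 7.32 at the end of treatment and differed by -0.81 ± 0.13 (adjusted p = 0.000566). The last, fech, which inserts the iron, had 7.63, 7.36 and 7.49 at 5 days, against 8.22, 8.08 and 8.24 at the end of treatment, -0.69 ± 0.10 lower (adjusted p = 0.000318). No array of one group reached the other for urod, cpox or fech, and for alas2 the nearest arrays were 11.58 at 5 days and 11.27 at the end of treatment. The falls of hmbsb (-0.75 ± 0.21) and ppox (-0.67 ± 0.19) were lost in at least 1 fit without an array. For hmbsb those were the fits without end of treatment replicate 3 and 5 days replicate 2, and the mean of its 2 clusters differed by only -0.31 (adjusted p = 0.275). The steps alad (0.01 ± 0.10) and uros (0.07 ± 0.08) did not pass the test. The erythroid list, from which the blood score is made, had 0 rises with it as a covariate. The summed erythroid signal was 20478 to 21969 at 5 days, 16579 to 20635 at the end of treatment and 11438 to 14730 in control, and without end of treatment replicate 3 the list had 14 rises.

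**Figure D5:**
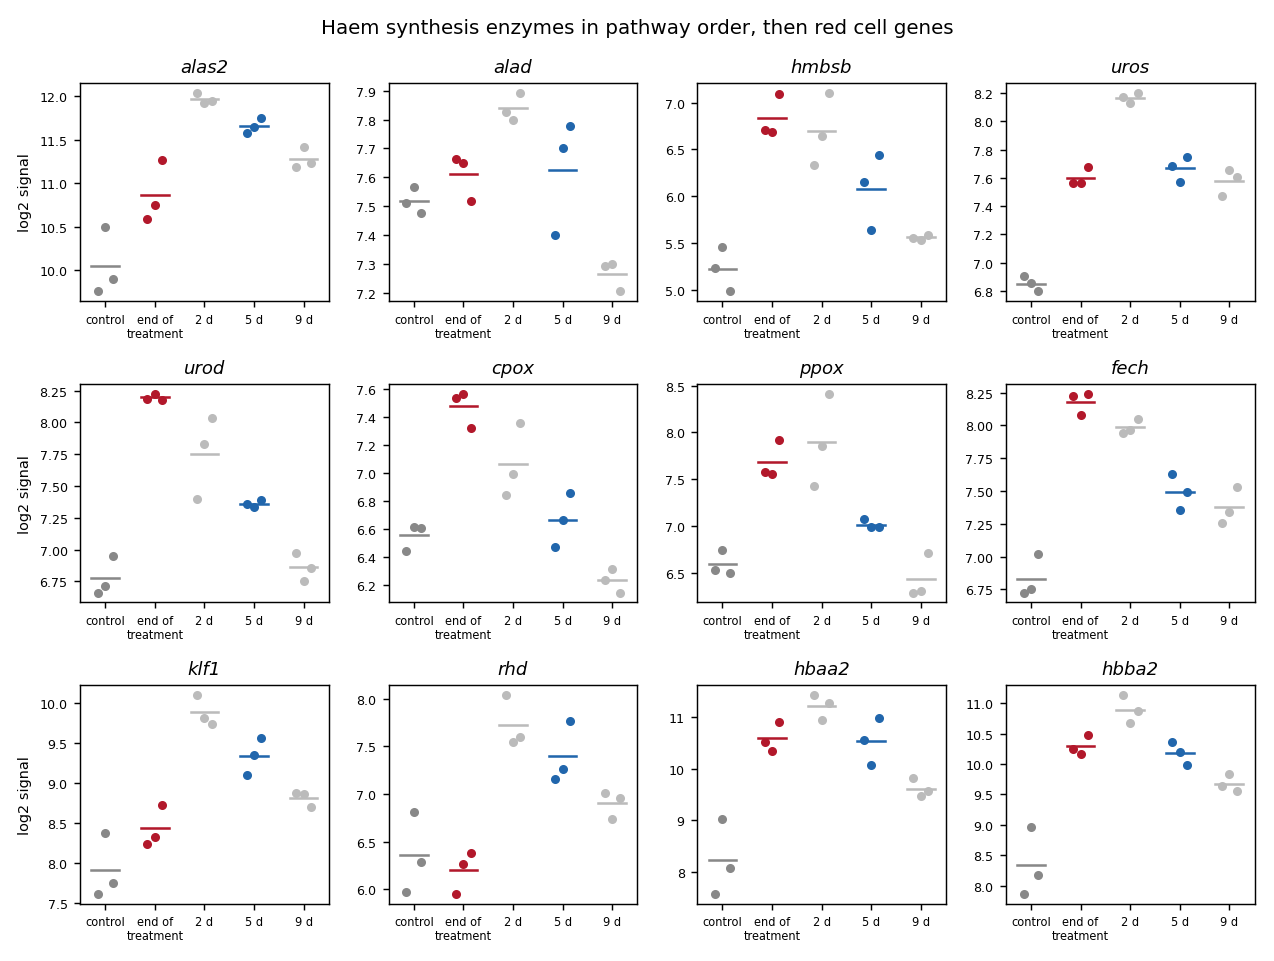
The log2 signals of the 15 arrays are shown as points with group means as lines, for 8 enzymes of haem synthesis in pathway order and 4 red cell genes, in the order control, end of treatment, 2, 5 and 9 days. The 5-day points (blue) lie above the end of treatment points (red) for alas2, klf1 and rhd, and below them for hmbsb, urod, cpox, ppox and fech. They overlap them for alad, uros and the globins hbaa2 and hbba2.

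Iron and haem handling had 2 of 38 genes higher (5.26%) and 8 lower (21.1%), with a median of -0.0588. The ferritin gene fth1a had 11.17, 11.08 and 10.99 at 5 days, against 10.65, 10.71 and 10.72 at the end of treatment, a difference of 0.39 ± 0.07 (adjusted p = 0.00149). The gene ncoa4, whose protein delivers ferritin for breakdown, rose by 0.39 ± 0.06 (adjusted p = 0.000589). The antioxidant genes prdx1 (-1.28 ± 0.19) and txnb (-1.08 ± 0.13) fell, as did the biliverdin reductase gene blvra (-0.48 ± 0.09) and bach1b, which encodes a haem-sensing repressor (-0.67 ± 0.14). The haem oxygenase gene hmox1a had 7.35, 7.15 and 7.25 at 5 days, against 6.78, 7.28 and 7.60 at the end of treatment, and its groups overlapped (0.03 ± 0.18, adjusted p = 0.941). Of 19 thrombocyte genes 2 rose and 2 fell (10.5% each, against 4.34% and 8.01% of all genes), with a median of 0.0967. Only gp1bb (0.80 ± 0.17, adjusted p = 0.00451) kept its call in all fits that left out an array. With the blood score the thrombocyte list had 0 calls and iron and haem handling 1 rise. The thrombocyte list's summed signal was 4541 to 4763 at 5 days, within the 4476 to 4873 of the end of treatment.

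Inflammatory genes were lower. Of 55 genes of inflammation and cytokine signalling 20 fell (36.4%) and 1, jak2a, rose, with a median of -0.321. The prostaglandin synthase gene ptgs2b had 5.22, 5.96 and 6.40 at 5 days, against 8.17, 8.15 and 8.35 at the end of treatment and fell by 2.36 ± 0.30 (adjusted p = 7.63e-05). Its duplicate ptgs2a had 5.43, 5.26 and 5.74 at 5 days, against 6.80, 6.95 and 6.69 at the end of treatment, a difference of -1.34 ± 0.17 (adjusted p = 7.8e-05). The groups were apart for both. Outside this list the receptor gene tnfrsf11a, of the tumour necrosis factor receptor family, was 5.08-fold lower (-2.35 ± 0.25, adjusted p = 1.44e-05). Against control 3 members of the inflammation list were higher at 5 days and 0 lower, with a median of -0.00153. Of all 19260 genes 752 were higher than control and 475 lower. Of 48 interferon response genes 11 fell (22.9%) and 0 rose, with a median of -0.203. The induced gene ifi44a1 (-1.52 ± 0.29, adjusted p = 0.00197), the peptide transporter gene tap2a (-0.88 ± 0.19, adjusted p = 0.00548) and ifi35 (-0.69 ± 0.12, adjusted p = 0.000939) were among them. Interferon falls numbered 7 with the blood score, 5 without end of treatment replicate 3 and 6 without 5 days replicate 1.

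Among leukocyte lists the pan leukocyte genes held most falls. Of 20 pan leukocyte genes 9 fell (45.0%) and 0 rose, with a median of -0.390. Against control 11 were higher, beside 752 of all 19260 genes. The integrin gene itgb2, carried by all leukocytes, had 7.76, 7.78 and 7.62 at 5 days, against 8.45, 8.54 and 8.43 at the end of treatment, with no overlap. It differed by -0.75 ± 0.11 from the end of treatment (adjusted p = 0.000186) and by 0.68 ± 0.11 from control (adjusted p = 0.000923). The chemokine receptor gene cxcr4b fell by 0.91 ± 0.19 (adjusted p = 0.00355). The count of falls was smaller in several fits on fewer arrays. It was 2 without end of treatment replicate 2, 5 without end of treatment replicate 3, 5 without 5 days replicate 1 and 4 without 5 days replicate 2. The list's score was -0.418 to -0.41 at 5 days and -0.0745 to 0.0677 at the end of treatment. Summed signal was 2074 to 2150 at 5 days, 2860 to 3325 at the end of treatment and 1236 to 1607 in control, and the lowest member, tyrobp, had a mean of 2.59 at 5 days. Of 36 macrophage genes 4 fell and 0 rose, where 8.01% of all genes fell and 4.34% rose, and 13 were above control. Only 1 of the 4 falls kept the call in every fit that left out an array. The growth factor receptor gene csf1ra had 8.73, 8.33 and 8.45 at 5 days, against 9.07, 9.28 and 9.14 at the end of treatment and differed by -0.66 ± 0.14 (adjusted p = 0.00512). The pore protein gene mpeg1.1 had 7.67, 7.57 and 7.52 at 5 days, against 8.13, 8.38 and 8.23 at the end of treatment, and its fall (-0.66 ± 0.19, adjusted p = 0.0288) was lost in every fit without an array except the one without end of treatment replicate 1. Macrophage falls numbered 1 without end of treatment replicate 2 and 2 without end of treatment replicate 3 or any one 5-day array, and 8 in a fit of only the 6 arrays. Of 22 neutrophil genes 3 fell (13.6%) and 0 rose (median -0.0973), with cebpb at -0.91 ± 0.17 and srgn at -0.43 ± 0.08. The other 19 were not called, and cebpb is also in the list of protein folding and stress genes. The fall of alox5a (-0.84 ± 0.24) was lost in at least 1 fit without an array (highest adjusted p = 0.14). Of 34 lymphocyte genes 2 rose (5.88%) and 3 fell (8.82%), near the 4.34% and 8.01% of all genes (median -0.0185). There was 1 fall without 5 days replicate 1, and 0 members were above control. The T cell receptor chain gene cd247 rose by 0.82 ± 0.16 (adjusted p = 0.00221), and swap70b fell by 0.54 ± 0.11 (adjusted p = 0.00423).

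Genes of cell division did not move as 1 group. Of 64 mitosis and cytokinesis genes 2 rose (3.12%) and 3 fell (4.69%), both under the shares of all genes, with a median of -0.106. The gene cdc20, which triggers the separation of chromosomes, had 5.87, 6.13 and 6.07 at 5 days, against 5.03, 5.00 and 5.06 at the end of treatment, a difference of 0.99 ± 0.14 (adjusted p = 0.000204). The phosphatase gene cdc25b, which starts mitosis, had 9.04, 8.81 and 8.89 at 5 days, against 9.30, 9.41 and 9.28 at the end of treatment and differed by -0.42 ± 0.10 (adjusted p = 0.00774). The kinase gene cdk1 had 6.79, 6.67 and 6.74 at 5 days, against 6.55, 6.46 and 6.51 at the end of treatment. All 3 arrays at 5 days were the higher ones, but the difference of 0.23 ± 0.14 did not pass the test (adjusted p = 0.338). These genes stayed above control at 5 days, by 1.86 ± 0.14 for cdc20, 1.15 ± 0.10 for cdc25b and 2.07 ± 0.14 for cdk1 (adjusted p = 1.48e-06, 2.71e-06 and 2.79e-07). In the list as a whole 40 of 64 were higher than control and 0 lower, with a median of 0.730. Of all 19260 genes 752 were higher than control and 475 lower. Without end of treatment replicate 1 or 2, or without 5 days replicate 1 or 3, the rise of kif20a was lost and cdc20 was the only one, and falls numbered 1 without end of treatment replicate 1 or with only the 6 arrays, 5 with no variance trend and 6 with arrays centred on their median. Mitosis rises numbered 1 with the blood score.

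Of 62 DNA replication genes 12 fell (19.4%) and 0 rose, with a median of -0.261. Above control were 17 of them, beside 752 of all 19260 genes. The polymerase gene pola1 had 5.82, 5.36 and 5.97 at 5 days, against 6.62, 6.47 and 6.47 at the end of treatment, a difference of -0.80 ± 0.14 (adjusted p = 0.00134). The kinase subunit gene dbf4, needed to fire replication origins, had 4.24, 4.20 and 4.39 at 5 days, against 5.03, 5.14 and 4.80 at the end of treatment, -0.71 ± 0.14 lower (adjusted p = 0.00278). Both were lower on every 5-day array and were the 2 members that kept the call whichever array was left out. The sliding clamp gene pcna had 8.68, 8.55 and 8.75 at 5 days, against 9.03, 9.21 and 8.83 at the end of treatment, and its fall (-0.37 ± 0.11, adjusted p = 0.0351) was lost without end of treatment replicate 1 or 2 and without 5 days replicate 1 or 2. The count of falls was 4 without end of treatment replicate 2, 7 without end of treatment replicate 3, 7 without 5 days replicate 1, 2 without 5 days replicate 2, 7 with only the 6 arrays and 2 with the blood score. Ribosome biogenesis had 6 of 74 higher (8.11%) and 3 lower, with a median of 0.0957. The nucleolar gene npm1a had 7.66, 7.5 and 7.82 at 5 days, against 8.40, 8.55 and 8.64 at the end of treatment and fell by 0.87 ± 0.11 (adjusted p = 6.41e-05), and gnl3, which encodes nucleostemin, rose by 0.54 ± 0.12 (adjusted p = 0.00534). Rises numbered 1 with the blood score, and 3 with only the 6 arrays, without end of treatment replicate 1 or without 5 days replicate 2 or 3.

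The heart regeneration list, which gathers growth factors and regulators studied in injured zebrafish hearts, had 9 of 79 genes higher (11.4%) and 15 lower (19%), with a median of -0.0231. The growth factor gene mdka, midkine, had 8.16, 8.04 and 8.14 at 5 days, against 9.12, 9.25 and 9.32 at the end of treatment, a difference of -1.12 ± 0.15 (adjusted p = 0.000158), and was 0.01 ± 0.15 from control (adjusted p = 0.991). The factor gene junba had 6.64, 6.59 and 6.49 at 5 days, against 7.89, 8.33 and 8.20 at the end of treatment and fell by 1.57 ± 0.24 (adjusted p = 0.000334). The damage response gene gadd45ab (-1.31 ± 0.19, adjusted p = 0.000236) and tgfb1b, for transforming growth factor beta 1 (-0.63 ± 0.10, adjusted p = 0.000617), fell too. Groups were apart for these 4. The gene jun rose (0.53 ± 0.10, adjusted p = 0.00179), and rises in the list numbered 2 with the blood score, and 5 with no variance trend, without end of treatment replicate 1 or 3 or without 5 days replicate 3.

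Protein folding and stress genes moved both ways, with 10 of 65 higher (15.4%) and 13 lower (20%) and a median of 0.0552. The co-chaperone gene bag3 had 11.40, 11.43 and 11.53 at 5 days, against 10.92, 10.69 and 10.74 at the end of treatment, a difference of 0.67 ± 0.07 (adjusted p = 8.73e-06). The gene dnajb5 rose by 1.25 ± 0.20 (adjusted p = 0.000548) and the heat shock factor gene hsf1 by 0.33 ± 0.07 (adjusted p = 0.00444). The stress phosphatase subunit gene ppp1r15a had 7.75, 7.92 and 8.24 at 5 days, against 9.19, 9.49 and 9.19 at the end of treatment and fell by 1.32 ± 0.18 (adjusted p = 0.000106). The stress factor gene ddit3 had 7.36, 7.64 and 7.77 at 5 days, against 8.62, 8.51 and 8.28 at the end of treatment, a difference of -0.88 ± 0.12 (adjusted p = 0.000151), and the disulfide isomerase genes pdia3 (-0.57 ± 0.11) and pdia4 (-0.42 ± 0.09) fell. With the blood score the list had 5 rises and 8 falls, and falls numbered 8 without end of treatment replicate 2 and 7 without 5 days replicate 1. Autophagy and protein breakdown had 19 of 74 lower (25.7%) and 2 higher, with a median of -0.173, and 1 rise without end of treatment replicate 3 and 11 falls with the blood score. The gene map1lc3cl, named as a relative of the autophagosome gene map1lc3c, had 6.28, 7.53 and 6.39 at 5 days, against 10.23, 10.48 and 10.81 at the end of treatment, a 13.7-fold lower mean (adjusted p = 3.12e-06). Even so it was 2.7 ± 0.34 above control at 5 days (adjusted p = 0.000143). The cargo receptor gene sqstm1 differed by -0.82 ± 0.10 (adjusted p = 4.41e-05), the lysosomal protease gene ctsd by -0.52 ± 0.07 (adjusted p = 0.000206), and the proteasome genes psmb2 and psme1 by -0.67 ± 0.10 and -0.72 ± 0.11 (adjusted p = 0.000207 and 0.00044). The mitophagy kinase gene pink1 rose by 0.35 ± 0.07 (adjusted p = 0.00442).

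Immediate early and clock genes, which respond to handling and to the hour of sampling, also differed. Of 38 immediate early genes 13 fell (34.2%) and 2 rose, with a median of -0.216. The factor gene klf11b had 7.61, 7.15 and 7.47 at 5 days, against 10.50, 10.87 and 10.41 at the end of treatment, a 9.1-fold lower mean (-3.19 ± 0.21, adjusted p = 1.56e-07). It was below control at 5 days as well (-1.60 ± 0.21, adjusted p = 0.000208) and below 2 days (-2.16 ± 0.21, adjusted p = 0.000287). At 9 days the mean of klf11b was 9.89, beside 7.41 at 5 days and 9.00 in control. The stress factor gene atf3 had 8.6, 8.58 and 9.26 at 5 days, against 7.49, 7.96 and 6.88 at the end of treatment, 1.37 ± 0.29 higher (adjusted p = 0.00486), and junbb (-0.91 ± 0.15) and ier5l (-0.74 ± 0.12) fell. Immediate early falls numbered 8 with the blood score. Of 40 clock genes 5 rose (12.5%) and 11 fell (27.5%), with a median of -0.0791. The period gene per2 had 8.35, 8.47 and 8.75 at 5 days, against 9.78, 9.68 and 9.48 at the end of treatment, a difference of -1.13 ± 0.17 (adjusted p = 0.00028). The light-responsive gene cry5 differed by -1.26 ± 0.17 (adjusted p = 0.000139), clocka by -0.71 ± 0.13 (adjusted p = 0.00146), and the clock output gene dbpa by 0.74 ± 0.09 (adjusted p = 7.57e-05). Groups did not overlap for these clock genes. Clock rises numbered 3, 1, 2 and 3 in the fits without end of treatment replicate 1, end of treatment replicate 2, 5 days replicate 1 and 5 days replicate 3, and 1 with the blood score. The hour of sampling is not given in the labels, and its part in any difference was not tested.

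Lists for tissues next to the heart held few calls. Of 27 liver and plasma genes 1 rose, apof (3.7%, against 4.34% of all genes), and 0 fell, with a median of 0.271. The summed signal was 496 to 680 at 5 days, 356 to 404 at the end of treatment and 662 to 814 in control. The lowest member at 5 days, apoa4b.1, had a mean of 2.11. Without 5 days replicate 2 or 3 the list had 2 rises. Of 41 skeletal muscle genes 1 (2.44%), casq1b, rose (0.51 ± 0.14, adjusted p = 0.0262), and 0 fell. That call was lost with the blood score, with only the 6 arrays, without end of treatment replicate 1 or 3 and without 5 days replicate 2. The summed signal was 10089 to 10419 at 5 days, within the 9982 to 10679 of the end of treatment.

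The remaining largest falls chosen for naming were ntmt2, serpini1 and asb18. The methyltransferase gene ntmt2 had 3.40, 3.54 and 2.92 at 5 days, against 6.64, 6.52 and 6.58 at the end of treatment (-3.29 ± 0.20, adjusted p = 8.48e-08). The protease inhibitor gene serpini1, for neuroserpin, had 6.18, 6.23 and 5.68 at 5 days, against 9.13, 8.90 and 8.59 at the end of treatment, -2.84 ± 0.17 lower (adjusted p = 8.48e-08). The gene asb18, of a family that marks proteins for breakdown, had 5.49, 4.98 and 5.08 at 5 days, against 7.54, 7.81 and 7.22 at the end of treatment and fell by 2.34 ± 0.22 (adjusted p = 5.21e-06). Every 5-day array lay at least 1 log2 unit below every array at the end of treatment for all 3 genes. None of them differed from control by the test, with 5 days minus control at -0.05 ± 0.20 for ntmt2, 0.46 ± 0.17 for serpini1 and -0.45 ± 0.22 for asb18.

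Between 5 and 2 days 36 genes differed, 7 higher and 29 lower at 5 days. The endothelin gene edn1, for a peptide that narrows vessels, differed by -1.07 ± 0.17 from 2 days (adjusted p = 0.0176) and by -0.72 ± 0.17 from the end of treatment (adjusted p = 0.00992). The replication helicase gene mcm7 differed by -0.63 ± 0.11 from 2 days (adjusted p = 0.024), and cdc20 by 0.92 ± 0.14 (adjusted p = 0.0164). Of the haem enzymes only uros was called between these days (-0.50 ± 0.08, adjusted p = 0.02). The flow-responsive factor genes klf2a (0.63 ± 0.11, adjusted p = 0.0236), klf2b (0.81 ± 0.15, adjusted p = 0.044) and klf4 (0.94 ± 0.17, adjusted p = 0.0317) were higher at 5 days than at 2 days, and none of the 3 differed from the end of treatment by the test (adjusted p = 0.66, 0.906 and 0.0832). These genes of the 5 against 2 days contrast were picked after their values were seen.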

How the data were processed

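RNA of zebrafish ventricles was measured on whole-transcript arrays that each took 250 ng of biotin-labelled RNA. The deposited values are log2 expression values that the authors made with RMA in oligo, per the submitters' processing notes. RMA corrects background, equalises quantiles between arrays and summarises probes, so levels of arrays are comparable but array-wide shifts are removed. The sources used here give no version, probe set level or genome build, so no coordinates are printed. Of 75212 transcript clusters 21661 were in the array's annotation table and 20806 had exactly 1 gene symbol, of which 20323 matched the reference gene table (GRCz12tu) by gene ID. For 1365 genes with several clusters the one with the highest mean was used, which left 19260 genes, 2321 of them with placeholder symbols. A gene that is not in the annotation used was not analysed here.

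The fit used limma 3.58.1 (R 4.3.3) on all 15 arrays, each group with its own mean, and limma's empirical Bayes test with an intensity trend, two-sided. P values were adjusted per contrast for all genes after Benjamini and Hochberg, and the threshold was 0.05. An exact permutation test of 3 against 3 arrays cannot go below p = 0.1, so calls rest on limma's variance model. Data were arranged and drawn with Python 3.11.15, pandas 2.3.3 and matplotlib 3.10.9. The labels call the arrays biological replicates. The 33 gene lists and the comparison were chosen with earlier results of these data known. Genes with placeholder symbols were barred from the ranking by size of change. Named genes are the 15 largest rises and 15 largest falls in it that kept the call whichever of the 6 arrays was left out. Added to them are up to 5 called members per list and direction by adjusted p, and a set of genes picked for the model. The genes of the Il11 chain and of haem synthesis are given as whole pathways. Summed signals add the members' values on the linear scale. Alternatives were other variance models, array weights, centring on the median, cyclic loess, a filter on dim genes and a fit of only the 6 arrays. Others were the average of the clusters of a gene, a fit of each cluster and the replicate number as a block. The last were the blood score, made from the erythroid list, as a covariate, and each array left out in turn. Detection values were not used here, so signal over background is unknown.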

Additional observations from a re-analysis of the deposited data

How the results depend on the processing

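Of the 11 alternatives that kept all arrays of the comparison, the fit of every cluster called 2583 of 75212 transcript clusters. Clusters are not genes, so that count cannot be set against 2377. The others, with an exception, stayed between 1969 (only the 6 arrays compared) and 2551 (dimmest genes left out) changed genes, against 2377. The exception was the blood score as a covariate, with 1343 changed genes, 371 higher and 972 lower, and a median standard error of 0.2 in place of 0.143. That fit counted 3838 genes at an unadjusted p under 0.05, and 1166 of its calls were among the 2377. The cause was not tested. Leaving out each array in turn gave 1615 to 2008 changed genes, 553 to 779 higher and 1062 to 1323 lower, on fewer arrays, and the lowest count of higher genes came without end of treatment replicate 2. Of 223 named genes 214 were called. These were not traced in the fit of every cluster, and 206 of them were in the fit without the dimmest genes. Of the 214, 128 were called under every alternative that held them and 159 under every such one but the blood score, with which 69 lost the call. Genes in the text that lost it then were acta2, alas2, ankrd1a, bmp1a, casq1b, cavin4b, fbln2, fth1a, gnl3, gp1bb, hif1ab, hif1al2, idh3a, ifi44a1, kif20a, klf1, ldb3a, mcm7, mrps10, mrps6, myh11a, nfe2, nr4a3, nt5c2l1, pcna, pdia4, pkmb, pola1, rasl11b, rcan1a, rhd, sdhaf1, sdhaf2, sdhaf4 and smtnb. A call lost with the score did not always go with a smaller difference. For mcm7 the difference went from -0.46 to -0.51 and for kif20a from 0.54 to 0.68. That of alas2 went from 0.79 to 0.28 and that of klf1 from 0.90 to 0.47. None of the 214 called named genes changed direction under any alternative that held it. Of all 2377 called genes 2375 kept their direction with the mean of a gene's clusters. Of the genes that were not called, 3 passed under some alternative: myh7 (mean of clusters, and without end of treatment replicate 3), slc4a1a (blood score) and tnnt2a (dimmest genes left out). Also not called, hbaa2 turned to 0.1012 without end of treatment replicate 3 and to 0.1774 without 5 days replicate 2, in a range of -0.2817 to 0.1774 over the arrays left out. The difference of myh6 became 0.2590 without 5 days replicate 2 (range -0.6597 to 0.2590). That of hmox1a became -0.02065 with arrays centred on their median, -0.02237 with the blood score, -0.1855 without end of treatment replicate 1 and -0.01593 without 5 days replicate 1 (range -0.1855 to 0.2209). With the replicate number as a block 2248 genes changed, 789 higher and 1459 lower. Deviations of arrays with the same number correlated at -0.068, -0.0527 and -0.103, and those of differing numbers at -0.0106 to 0.0771. Deviations from a mean of 3 arrays cancel out within a group, so these values cannot show whether the numbers pair the arrays. With 3 arrays per group and no detection values, changes of dim genes are the least certain.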

Other observations

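Several further genes that lie in none of the lists kept their call whichever array was left out. They were chosen after their values were seen. The transcription factor gene prdm1a had 6.51, 6.90 and 6.47 at 5 days, against 8.84, 8.89 and 8.64 at the end of treatment and fell by 2.16 ± 0.15 (adjusted p = 2.2e-07). It was still 0.89 ± 0.15 above control (adjusted p = 0.00149). The receptor tyrosine kinase gene kita had 4.28, 4.75 and 4.86 at 5 days, against 6.66, 6.08 and 6.28 at the end of treatment, a difference of -1.71 ± 0.20 (adjusted p = 3.54e-05). The follistatin-like gene fstl1a, for a secreted protein that epicardium makes in mammals, had 6.94, 7.42 and 7.38 at 5 days, against 9.28, 8.97 and 8.58 at the end of treatment, -1.70 ± 0.21 lower (adjusted p = 4.89e-05) and 1.41 ± 0.21 from control (adjusted p = 0.000555). The mitochondrial sulfide oxidation gene sqor had 7.91, 7.94 and 8.19 at 5 days, against 10.11, 9.76 and 9.56 at the end of treatment and fell by 1.79 ± 0.15 (adjusted p = 2.35e-06). The protease inhibitor gene serpine2 had 10.86, 10.73 and 10.72 at 5 days, against 11.88, 11.93 and 12.02 at the end of treatment, a difference of -1.17 ± 0.09 (adjusted p = 1.12e-06). In each of these 5 genes the groups did not overlap.

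Further rises outside the lists, also chosen after their values were seen, were these. The carboxylase gene acaca, for the first step of fatty acid synthesis, had 7.09, 7.03 and 7.08 at 5 days, against 6.26, 6.13 and 6.07 at the end of treatment, a difference of 0.91 ± 0.10 (adjusted p = 1.45e-05). The gene mid1ip1b, whose product activates that enzyme in mammals, had 7.03, 7.04 and 7.18 at 5 days, against 5.90, 5.81 and 5.90 at the end of treatment, 1.21 ± 0.13 higher (adjusted p = 1.63e-05) and 0.87 ± 0.13 above control (adjusted p = 0.000681). The sterol sensor gene insig1 had 7.32, 8.17 and 7.74 at 5 days, against 6.48, 6.71 and 6.39 at the end of treatment and rose by 1.22 ± 0.16 (adjusted p = 8.96e-05). No array of one group reached the other for these 3 genes. The genes casz1, for a factor of heart muscle development (0.87 ± 0.10, adjusted p = 1.8e-05), smyd2b, for a methyltransferase of the sarcomere (0.92 ± 0.10, adjusted p = 2.03e-05), and klhl40a, for a thin filament stabiliser (0.91 ± 0.15, adjusted p = 0.000726), rose as well. The retinol carrier gene rbp4 had 9.70, 10.17 and 10.14 at 5 days, against 8.54, 8.68 and 8.67 at the end of treatment, a difference of 1.37 ± 0.12 (adjusted p = 1.84e-06), and stood 0.01 ± 0.12 from control (adjusted p = 0.98).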
